A study of Homo sapiens with 18 samples.

Results

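The genes described here write, erase or feed the chemistry of DNA methylation: DNMT1, DNMT3A, DNMT3B, TET2, TET3, IDH1 and IDH2. They were taken by name from a table of CAGE tag counts, in which these 7 genes stand among 14079 gene symbols. In CAGE (cap analysis of gene expression) the cap of an RNA is captured and its first bases are read, so a tag marks a point where transcription began, and tag numbers need no correction for gene length. The 18 libraries came from human acute myeloid leukaemia cell lines labelled AML3 and AML2, each grown with OTX015, with JQ1 or with vehicle (DMSO), with 3 libraries in each of 6 groups. In the count tables the lines are named OCI-AML3 and OCI-AML2. From general knowledge, OCI-AML3 carries mutations in NPM1 and DNMT3A, and OCI-AML2 lacks the NPM1 mutation. Whether OCI-AML2 has a DNMT3A mutation of its own is not stated here, and the labels give no genotype. Each line descends from a single patient, so a difference between lines is one between those 2 lines. Dose and duration of treatment are not given in the labels. OTX015 (birabresib) and JQ1 are BET inhibitors, thienotriazolodiazepines that block the acetyl-lysine pocket of BRD2, BRD3 and their relatives. Both share the fused ring core, and they differ in the side chain, an amide carrying a hydroxyphenyl ring in OTX015 and a tert-butyl ester in JQ1.

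DNA methyltransferases attach methyl groups to cytosines, mostly where a cytosine stands before a guanine. DNMT1 copies the pattern onto the new strand after replication, with UHRF1 as its guide, while DNMT3A and DNMT3B set methylation on unmethylated DNA. TET2 and TET3 oxidise methylcytosine to hydroxymethylcytosine, the first step of active demethylation, and need α-ketoglutarate for it. IDH1 in the cytosol and IDH2 in the mitochondrion make α-ketoglutarate from isocitrate, and mutant forms of both turn it into a hydroxyglutarate that inhibits TET enzymes. DNMT3A, TET2, IDH1 and IDH2 are among the recurrently mutated genes of acute myeloid leukaemia. These data measure RNA starts only, not mutations, enzyme activity or methylation.

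Libraries held 303883 to 2163106 tags at genes. Libraries numbered 3 were shallower, at 303883 to 957036 tags, against 777939 to 2163106 for those numbered 1 and 2. In the AML3 drug groups they also lay apart, by a chi-square of tag counts averaged per gene. With OTX015 it was 2.08 between libraries 1 and 2, and 9.83 and 9.20 against library 3. With JQ1 it was 2.24, and 13.2 and 13.9. The gap was smaller in AML2, at 4.04 against 7.78 and 9.44 with OTX015 and 2.68 against 6.30 and 6.30 with JQ1. With vehicle the values were 3.49 against 5.84 and 6.10 in AML3, and 7.34 against 10.3 and 7.12 in AML2. The cause was not tested. Of 8 listed myeloid genes, CD33, SPI1, PTPRC, CD68, CEBPA and LYZ had tags in every library, CSF1R was at 0 to 10.1 CPM and MPO was not analysed here. The B cell marker CD79A reached at most 2.11 CPM and the fibroblast marker COL1A2 at most 5.46 CPM. Levels are CPM, tags over the library total scaled by its TMM factor, and means carry ± SD with n = 3 libraries. Nothing in the labels says that libraries of a group came from separate cultures, so p-values measure only the spread between these libraries. Fewer cells that use a gene and less RNA per cell cannot be told apart in these bulk samples. Scaled CPM are relative levels, so a change in RNA amount common to most genes would not be seen.

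The starts of the 7 genes fell into 24 named tag clusters, whose counts added up exactly to the gene's count in every library. Cluster coordinates are in hg19, as the names give them. DNMT1 (98.8% of 2209 tags at 1 cluster, chr19:10305581-10305646, minus strand) and IDH2 (98.9% of 1367 tags, chr15:90645679-90645753, minus strand) each used essentially a single cluster. IDH1 had 81.6% of its 1457 tags at a main cluster (chr2:209119779-209119816, minus strand), 8.51% at one lying 52 bases upstream and 6.25% at one lying 823 bases downstream. Of the 213 DNMT3A tags, 45.5% and 42.3% lay at neighbouring clusters 65 bases apart (the first at chr2:25564815-25564848, minus strand), and 5.16% lay 89695 bases downstream, inside the gene. From all pairs of annotated GRCh38 starts, the pair spaced most like the clusters was picked. It stands 811 bases apart in IDH1 (9 starts) and 89802 bases apart in DNMT3A (13 starts). For the smaller TET2 cluster, at -215 bases from the main one, the pair picked gave -147 bases. A close spacing was sought, so it does not identify a cluster with an annotated start. An internal start of DNMT3A is known as that of the short isoform DNMT3A2, which lacks the N-terminal part of the protein. Whether the internal cluster is that start was not tested. TET2 used a pair of clusters 215 bases apart, with 60.1% and 39.9% of its 203 tags, and DNMT3B (96 tags) and TET3 (37 tags) had 1 cluster each.

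The promoter windows below hold annotated starts of genes on which the results turn. Shown are windows of DNMT1, of IDH1 upstream, and of DNMT3A upstream and internally. They run from 250 bases before to 50 bases after a start in RefSeq (GRCh38.p14), 5′ to 3′ on the minus strand, at chr19:10194904-10195203, chr2:208255022-208255321, chr2:25341876-25342175 and chr2:25252082-25252381. Tag clusters were not converted between builds, so their exact place in a window is not given. Capitals mark every match, on either strand, of CACGTG (E-box), TTTNGCGC (E2F-type), GGGCGG (GC box), CCAAT and TATAAA. No matches of different motifs overlapped in them.
DNMT1: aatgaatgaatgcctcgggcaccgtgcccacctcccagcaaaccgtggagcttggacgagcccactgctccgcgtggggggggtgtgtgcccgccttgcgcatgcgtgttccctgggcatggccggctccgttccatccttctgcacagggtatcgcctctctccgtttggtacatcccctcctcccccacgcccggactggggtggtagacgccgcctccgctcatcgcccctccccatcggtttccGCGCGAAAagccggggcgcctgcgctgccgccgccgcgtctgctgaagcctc
IDH1: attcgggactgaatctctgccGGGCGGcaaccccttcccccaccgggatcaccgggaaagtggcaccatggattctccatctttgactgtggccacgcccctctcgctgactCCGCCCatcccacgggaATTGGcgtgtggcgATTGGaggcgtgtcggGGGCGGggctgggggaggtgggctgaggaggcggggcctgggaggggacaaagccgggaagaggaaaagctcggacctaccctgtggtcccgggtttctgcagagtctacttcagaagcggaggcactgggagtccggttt
DNMT3A, upstream: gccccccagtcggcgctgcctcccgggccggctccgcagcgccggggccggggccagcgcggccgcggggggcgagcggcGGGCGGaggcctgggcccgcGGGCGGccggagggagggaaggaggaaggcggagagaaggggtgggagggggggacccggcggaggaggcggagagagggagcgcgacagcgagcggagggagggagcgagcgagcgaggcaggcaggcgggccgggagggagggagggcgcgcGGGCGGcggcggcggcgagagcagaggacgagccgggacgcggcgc
DNMT3A, internal: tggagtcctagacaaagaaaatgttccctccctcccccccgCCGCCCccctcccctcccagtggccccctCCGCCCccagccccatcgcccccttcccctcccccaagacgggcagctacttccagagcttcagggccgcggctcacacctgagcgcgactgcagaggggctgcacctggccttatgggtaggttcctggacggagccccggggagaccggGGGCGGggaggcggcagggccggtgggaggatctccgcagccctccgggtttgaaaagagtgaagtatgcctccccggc

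The DNMT1 window held 1 E2F-type match, on the reverse strand, a motif found in 1.79% of 35116 RefSeq windows of the same length, and no match of the other 4. The IDH1 window held 3 GC boxes, present in 45.0% of all windows, and 2 CCAAT matches on the reverse strand, present in 34.6%. Each of the DNMT3A windows shown held 3 GC boxes. The upstream DNMT3A window had 46 CG pairs, more than 97.1% of windows, while the internal one had 18 and the DNMT1 window had 30. None of the 4 windows held the E-box (7.26% of all windows) or TATAAA (11.5%). Other RefSeq windows at internal DNMT3A starts, chr2:25252266-25252565 and chr2:25252214-25252513, overlap the internal one shown, and each held 1 E-box match. Which of them holds the internal tag cluster was not determined. These are matches of letters and were not tested as sites.

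**Figure D1:**
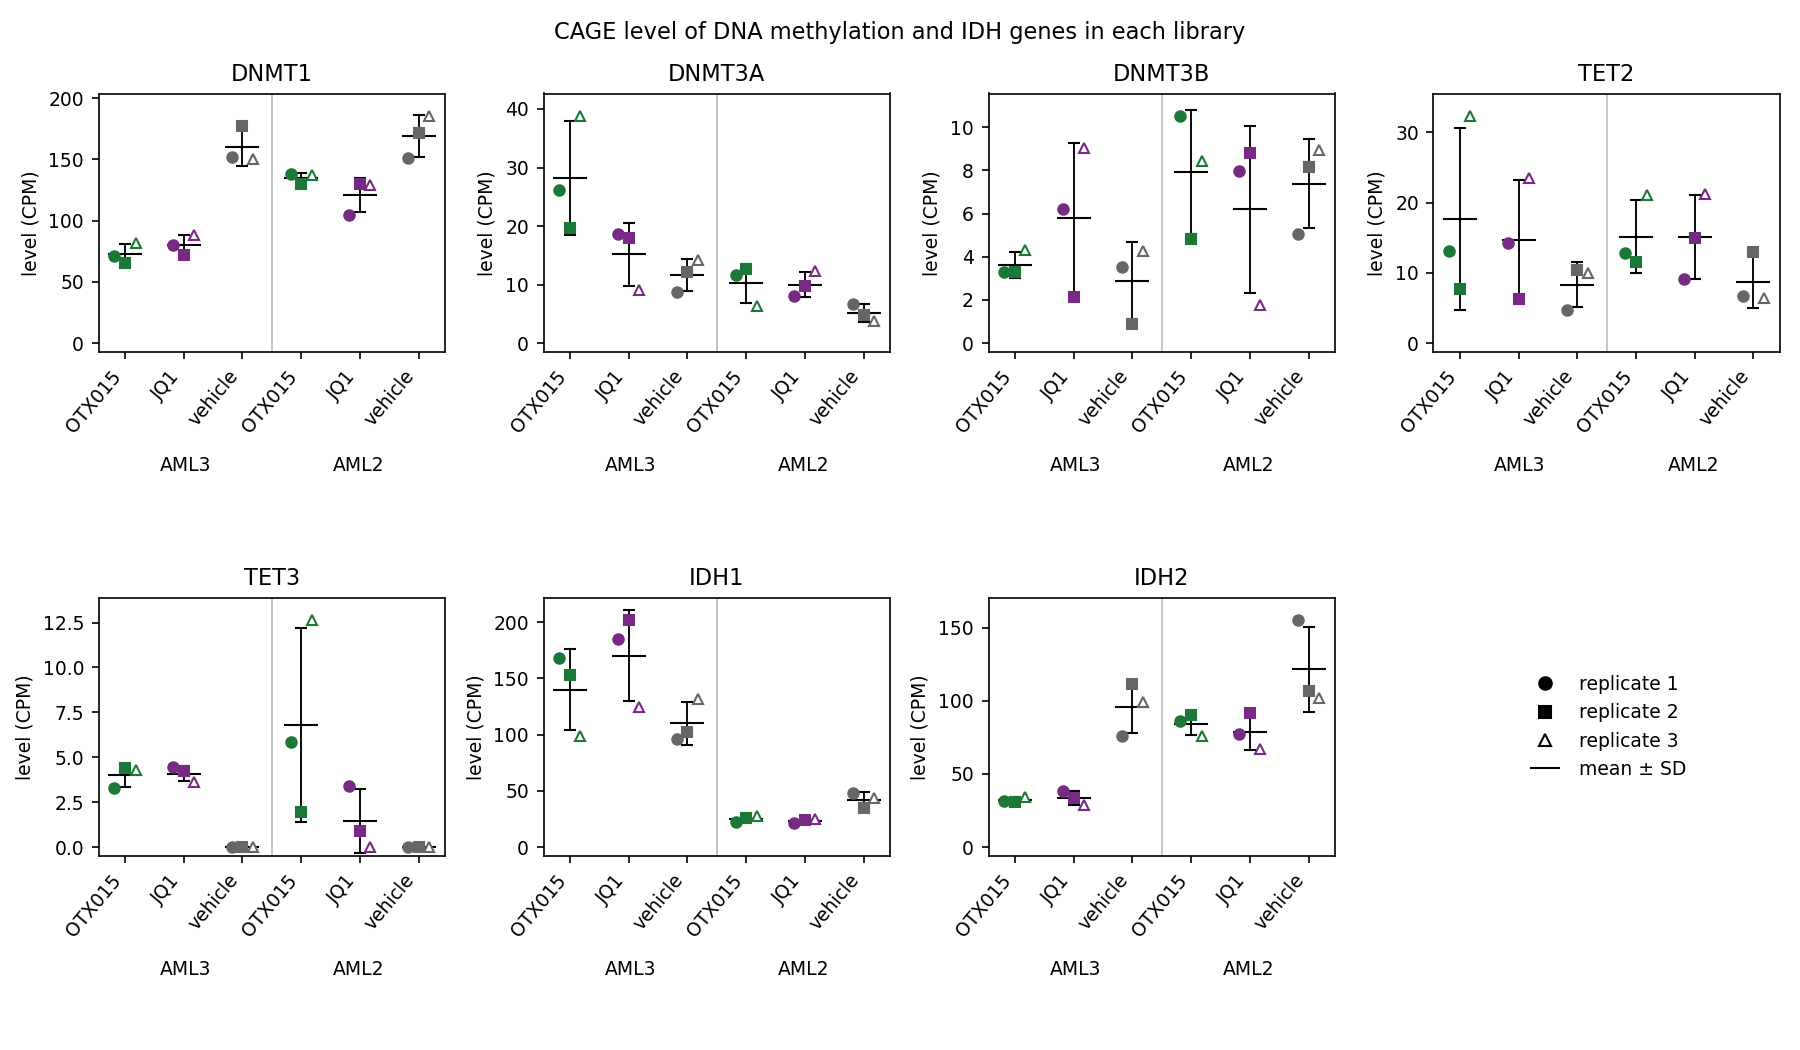
Level in CPM (y axis, linear) of each of the 7 genes in each of the 18 libraries, by line and treatment; filled circles, filled squares and open triangles are replicates 1, 2 and 3, and bars are mean ± SD. IDH2 and DNMT1 in AML3 lie lower with either drug than with vehicle, IDH1 lies far higher in AML3 than in AML2, and TET3 is at 0 in all 6 vehicle libraries.

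DNMT1, the maintenance methyltransferase and the most tagged of the group, fell in AML3 with both drugs, 2.21-fold with OTX015 and 2.01-fold with JQ1. Its levels in AML3 were 71.0, 65.7 and 81.8 CPM with OTX015, 80.0, 71.9 and 88.4 CPM with JQ1, and 152, 177 and 150.3 CPM with vehicle. In AML2 they were 138, 129.6 and 137 CPM with OTX015, 105, 129.6 and 129 CPM with JQ1, and 151, 171 and 185 CPM with vehicle. In both lines every drug library lay below every vehicle library, with a wider gap in AML3. The log2 fold change in AML3 was -1.15 for OTX015 (SE 0.21, adjusted p = 5.28e-05) and -1.005 for JQ1 (SE 0.20, adjusted p = 0.000225; edgeR quasi-likelihood test). In AML2 it was -0.33 for OTX015 (adjusted p = 0.188) and -0.48 for JQ1 (SE 0.20, adjusted p = 0.0575), which did not pass the threshold of 0.05. The JQ1 change in AML2 passed in 2 of 12 alternatives, DESeq2 and the fit with replicate number as a block (adjusted p = 0.026 and 0.0477). With vehicle the lines were close, at 159.8 ± 15.2 CPM in AML3 and 169 ± 17.3 CPM in AML2 (log2 -0.08, 95% confidence interval -0.47 to 0.31). With drug AML3 was the lower line, by log2 -0.90 for OTX015 (adjusted p = 0.00142) and -0.60 for JQ1 (adjusted p = 0.0229). The JQ1 call was lost without AML3 JQ1 replicate 1 or 2 or AML2 JQ1 replicate 2 (adjusted p = 0.0551, 0.0837 and 0.087), and in a fit of the compared groups alone (log2 -0.61, adjusted p = 0.0634). The difference between the lines in the drug response itself did not pass, at -0.82 for OTX015 (adjusted p = 0.0755) and -0.52 for JQ1 (adjusted p = 0.295). For OTX015 it passed in 2 of 18 alternatives, DESeq2 (-0.81, adjusted p = 0.0391) and replicates 1 and 2 alone (-1.04, adjusted p = 0.00499).

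DNMT3A, a de novo methyltransferase, rose in AML3 with OTX015, at much lower levels than DNMT1. It had 26.2, 19.7 and 38.8 CPM with OTX015 in AML3, 18.7, 17.97 and 9.02 CPM with JQ1, and 8.80, 12.1 and 14.2 CPM with vehicle. All 3 OTX015 libraries lay above the vehicle libraries, whereas JQ1 replicate 3 fell among them. The rise with OTX015 in AML3 was log2 1.26 (SE 0.34, adjusted p = 0.00294), and JQ1 gave 0.52 (SE 0.36, adjusted p = 0.229). In AML2 the levels were 11.7, 12.6 and 6.32 CPM with OTX015, 7.99, 9.70 and 12.3 CPM with JQ1, and 6.74, 4.88 and 3.83 CPM with vehicle. OTX015 overlapped vehicle there by 1 library and JQ1 did not overlap it, and neither change passed, at log2 1.03 for OTX015 (adjusted p = 0.0609) and 0.88 for JQ1 (adjusted p = 0.124). The OTX015 change in AML2 passed without OTX015 replicate 3 (adjusted p = 0.0452), and the JQ1 change in AML3 passed with replicates 1 and 2 alone (log2 0.85, adjusted p = 0.0491). AML3 was higher than AML2 with OTX015 (log2 1.30, SE 0.36, adjusted p = 0.0064), a call lost with replicates 1 and 2 alone (log2 0.90, adjusted p = 0.0504, the highest of 12 alternatives, which began at 0.00467). With JQ1 the line difference was log2 0.71 (adjusted p = 0.147), which passed with replicates 1 and 2 alone (1.02, adjusted p = 0.0412). With vehicle it was log2 1.07 (SE 0.41, adjusted p = 0.0566), with no overlap between the lines, and it passed in a fit of those groups alone (1.13, adjusted p = 0.034). The difference in response to OTX015 between the lines was log2 0.23 (adjusted p = 0.885).

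The internal DNMT3A start was seen mainly in AML2 with vehicle. There it gave 1, 4 and 2 of the gene's tags in the 3 libraries, 7 of 20 in all, a share of 35.0% (exact 95% binomial interval 15.4 to 59.2%, counting error only). In AML2 it gave 0 of 26 tags with OTX015 (interval up to 13.2%) and 0 of 25 with JQ1 (up to 13.7%). In AML3 it gave 0 of 60 tags with OTX015, 2 of 43 with JQ1 and 2 of 39 with vehicle. With the AML2 drug groups set at a floor of 3 tags, the vehicle level stood 1.48-fold above OTX015 and 1.62-fold above JQ1. Those folds leave out the counting error of the 7 vehicle tags, so a fall of that size is not shown. With 11 tags in all libraries it was too low to enter the promoter test.

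DNMT3B, the other de novo enzyme, was too low for the test. It had 8, 14 and 10 tags over the 3 libraries with OTX015, JQ1 and vehicle in AML3, and 18, 18 and 28 tags in AML2. Its pooled ratio of drug to vehicle ran from 0.951 for JQ1 in AML2 to 1.90 for JQ1 in AML3, each with a 95% counting interval that included 1. In AML3 with vehicle the level was 2.88 ± 1.78 CPM, against 7.38 ± 2.05 CPM in AML2, a ratio of 0.382 (counting interval 0.165 to 0.81). Without a filter on low counts that difference did not pass (adjusted p = 0.0934).

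TET3 was the gene with no tag in any vehicle library. In AML3 it had 3.28, 4.38 and 4.31 CPM with OTX015 (9 tags) and 4.45, 4.23 and 3.61 CPM with JQ1 (11 tags), against 0 tags with vehicle. In AML2 it had 5.84, 1.93 and 12.6 CPM with OTX015 (13 tags) and 3.42, 0.881 and 0 CPM with JQ1 (4 tags), again against 0 tags with vehicle. Tags were present in 11 of 12 drug libraries and 0 of 6 vehicle libraries. Vehicle libraries held 822070 to 2163106 gene tags and drug libraries 303883 to 1290954. At like depth drug libraries had tags at more genes. In AML3, OTX015 replicate 1 had 12355 genes at 800633 tags and vehicle replicate 3 had 11798 at 822070. In AML2, OTX015 replicate 1 had 11985 at 930081 tags and vehicle replicate 3 had 11585 at 957036. How many other genes had tags with drug and none with vehicle was not counted. With vehicle set at a floor of 3 tags, TET3 stood 4.67-fold above it with OTX015 and 4.98-fold with JQ1 in AML3. In AML2 it stood 6.99-fold and 1.97-fold above it with the same compounds. Those folds leave out the counting error of the drug tags, so they are not lower bounds. For JQ1 in AML2 the exact counting intervals overlapped, at 0.423 to 3.97 CPM with drug and up to 0.967 CPM with vehicle. In the other comparisons of drug with vehicle these intervals did not overlap. TET3 failed the filter on low counts and so stands outside the counts of tested genes below. In the edgeR fit without that filter, the adjusted p was 0.00302 for OTX015 and 0.0023 for JQ1 in AML3, and 0.000702 for OTX015 and 0.0659 for JQ1 in AML2. That fit called 5989 of 14079 genes for OTX015 and 5459 for JQ1 in AML3, and 4226 and 3602 in AML2.

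TET2 passed in none of the comparisons. Its mean level in AML3 was 17.7 ± 12.9 CPM with OTX015, 14.7 ± 8.56 CPM with JQ1 and 8.33 ± 3.16 CPM with vehicle. In AML2 it was 15.2 ± 5.13 CPM with OTX015, 15.1 ± 6.02 CPM with JQ1 and 8.72 ± 3.73 CPM with vehicle. The drug means were higher in both lines, but the libraries of drug and vehicle overlapped in all 4 comparisons, and the log2 fold changes of 0.59 to 0.99 had adjusted p-values of 0.108 to 0.353. In each drug group the shallow library numbered 3 was the highest, between 21.1 and 32.3 CPM. With replicates 1 and 2 alone the changes were smaller, at log2 0.54 for OTX015 and 0.59 for JQ1 in AML3, and 0.26 and 0.29 in AML2 (adjusted p 0.334 to 0.682). The OTX015 change in AML3 was log2 0.41 without OTX015 replicate 3 (adjusted p = 0.55), 0.59 without vehicle replicate 1 (adjusted p = 0.401) and 1.38 without OTX015 replicate 2, where it passed (adjusted p = 0.0346). The third member of the family, TET1, had 7 tags over all libraries.

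IDH1, the cytosolic enzyme, separated the lines. AML3 had 168, 153 and 99.1 CPM with OTX015, 185, 202 and 124 CPM with JQ1, and 96.2, 102 and 132 CPM with vehicle. AML2 had 22.2, 26.1 and 27.4 CPM with OTX015, 21.7, 23.8 and 24.7 CPM with JQ1, and 48.0, 34.7 and 43.4 CPM with vehicle. Every AML3 library lay above every AML2 library. With vehicle AML3 was 2.61-fold higher than AML2 (log2 1.39, SE 0.23, adjusted p = 6.4e-05), with OTX015 5.67-fold (log2 2.50, SE 0.26, adjusted p = 3.83e-08) and with JQ1 7.35-fold (log2 2.88, SE 0.26, adjusted p = 2.49e-09).

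JQ1 moved IDH1 differently in the lines. In AML2 it fell with OTX015 (log2 -0.73, SE 0.28, adjusted p = 0.0382) and with JQ1 (log2 -0.83, SE 0.28, adjusted p = 0.0211), with no overlap between drug and vehicle libraries. In AML3 it rose with JQ1 (log2 0.66, SE 0.22, adjusted p = 0.0135), although the library ranges overlapped, and OTX015 gave 0.39 (SE 0.22, adjusted p = 0.137). The response to JQ1 differed between AML3 and AML2 by log2 1.49 (SE 0.35, adjusted p = 0.00831) and passed in all 18 alternative fits (adjusted p up to 0.0335). For OTX015 the difference was 1.12 (SE 0.36, adjusted p = 0.0519), which passed in 5 of 18 alternatives (adjusted p 0.00157 to 0.152). The separate responses were less firm. The rise in AML3 with JQ1 was lost without vehicle replicate 1 or 2 or JQ1 replicate 1 or 2 (adjusted p 0.0527 to 0.0811), and with replicates 1 and 2 alone it was 0.97. In AML3 the drug libraries numbered 3 were the lowest of their groups, and with replicates 1 and 2 alone the OTX015 change also passed (log2 0.69, adjusted p = 0.00113), as it did without OTX015 replicate 3 (log2 0.56, adjusted p = 0.0364). Over 12 alternatives the fall in AML2 kept its direction, with adjusted p-values of 0.0305 to 0.136 for OTX015 and 0.0174 to 0.0852 for JQ1. The call was lost without vehicle replicate 1 or any 1 drug library, and for OTX015 also without vehicle replicate 3.

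Within IDH1 each start cluster was set against vehicle on its own, and no test compared the clusters with each other. The main cluster held 119 ± 28.5 CPM with OTX015, 148 ± 34.8 CPM with JQ1 and 90.6 ± 13.3 CPM with vehicle in AML3, and 19.3 ± 4.5, 15.7 ± 3.32 and 33.5 ± 5.88 CPM in AML2 with the same treatments. It changed like the gene: its response to JQ1 differed between AML3 and AML2 by log2 1.80 (SE 0.39, adjusted p = 0.00405). The cluster lying 823 bases downstream gave 13, 13 and 5 tags with OTX015, 12, 21 and 6 with JQ1, and 11, 4 and 3 with vehicle in AML3. In AML2 it gave 0 tags in all 6 drug libraries and 2, 1 and 0 with vehicle. In AML3 this cluster rose with OTX015 (log2 1.42, SE 0.50, adjusted p = 0.0207) and with JQ1 (log2 1.55, SE 0.49, adjusted p = 0.0106), calls that ended without vehicle replicate 2 (adjusted p = 0.0933 and 0.06), without JQ1 replicate 2 (log2 1.07, adjusted p = 0.144) and, for OTX015, without vehicle replicate 3 or either of the first 2 OTX015 libraries (0.0542 to 0.0757). With AML2 set at a floor of 3 tags, AML3 exceeded AML2 at this cluster by 10.8-fold with OTX015 and 12.9-fold with JQ1. The counting error of the AML3 tags is left out of these folds. The cluster 52 bases upstream of the main one passed in no drug comparison, with log2 fold changes of -0.48 to 0.36. Its share of IDH1 tags in AML3 was 5.88% with OTX015, 4.06% with JQ1 and 9.33% with vehicle, and in AML2 it was 20.3%, 30.0% and 12.9% with the same treatments. Shares in single libraries overlapped, at 2.88 to 7.25% with JQ1 and 5.93 to 15.1% with vehicle in AML3. In AML2 they were 10.5 to 40.7% with JQ1 and 11.8 to 14.1% with vehicle.

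**Figure D2:**
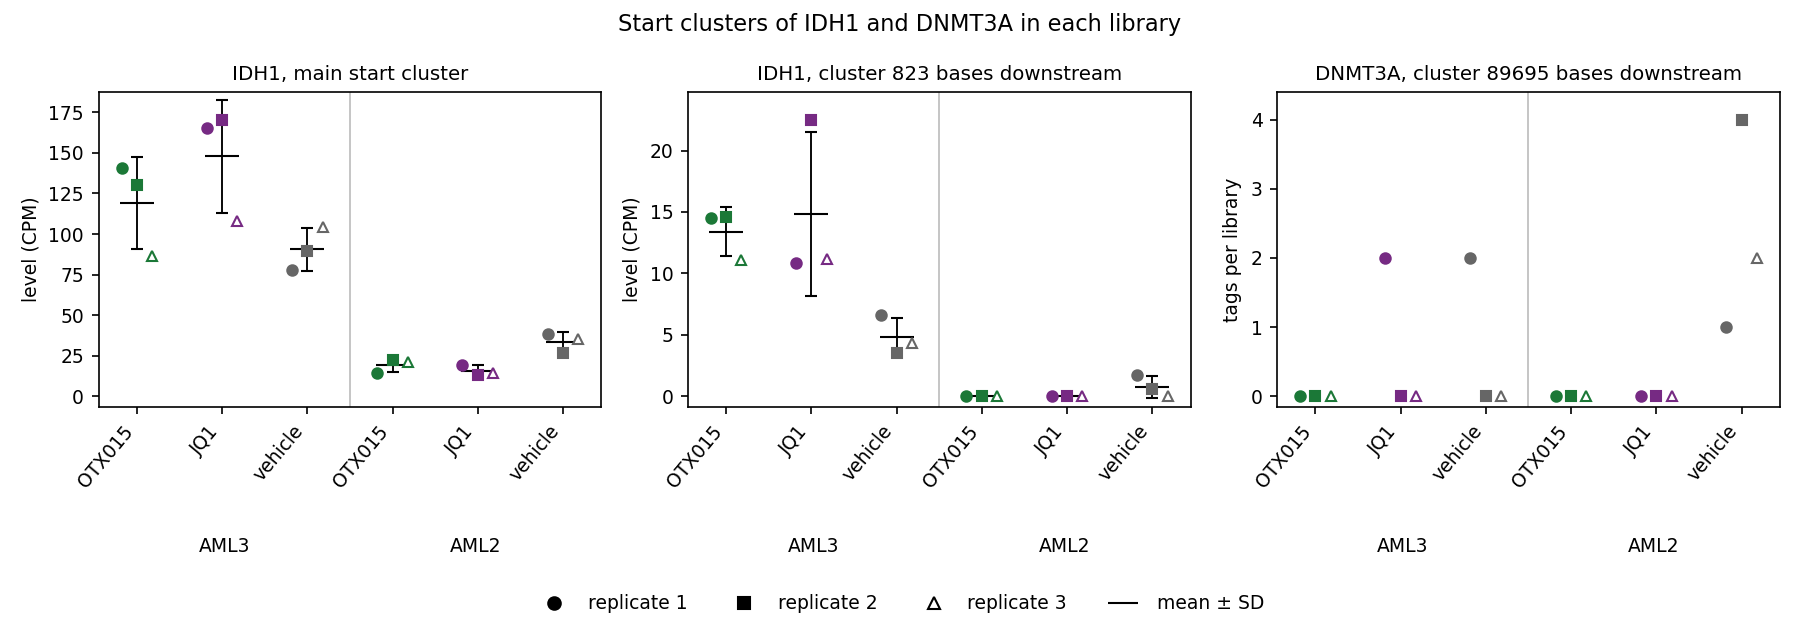
The main IDH1 start cluster and the one 823 bases downstream (y axes in CPM, with mean ± SD), and the internal DNMT3A cluster 89695 bases downstream of the main one (y axis in tags), in each library by line and treatment. The downstream IDH1 cluster has 0 tags in all 6 AML2 drug libraries, and 7 of the 11 tags of the internal DNMT3A cluster lie in the AML2 vehicle libraries.

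IDH2, the mitochondrial enzyme, was lower with both drugs in both lines. In AML3 it had 31.7, 30.7 and 34.5 CPM with OTX015, 38.2, 33.8 and 28.9 CPM with JQ1, and 76.2, 112 and 99.3 CPM with vehicle. In AML2 it had 86.4, 90.0 and 75.8 CPM with OTX015, 77.6, 91.7 and 67.0 CPM with JQ1, and 155, 107 and 102 CPM with vehicle. No drug library reached a vehicle library of its line. In AML3 the fall was log2 -1.57 for OTX015 (SE 0.24, adjusted p = 7.18e-06), a 2.96-fold change, and -1.47 for JQ1 (SE 0.23, adjusted p = 1.35e-05). In AML2 it was log2 -0.52 for OTX015 (SE 0.21, adjusted p = 0.048) and -0.61 for JQ1 (SE 0.21, adjusted p = 0.0242). Without AML2 vehicle replicate 1, the highest library, these shrank to -0.31 (adjusted p = 0.286) and -0.40 (adjusted p = 0.179), the highest p-values of their 12 alternatives, of which 5 passed for OTX015 and 8 for JQ1. The OTX015 call was also lost without any 1 OTX015 library, and the JQ1 call without JQ1 replicate 1 or 3.

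With vehicle IDH2 was 95.7 ± 17.96 CPM in AML3 and 121 ± 29.3 CPM in AML2, which overlapped (adjusted p = 0.221). With drug AML3 was lower, by log2 -1.40 for OTX015 (SE 0.25, adjusted p = 6.65e-05) and -1.22 for JQ1 (SE 0.24, adjusted p = 0.000218). The response to OTX015 differed between AML3 and AML2 by log2 -1.05 (SE 0.32, adjusted p = 0.0412), that to JQ1 by log2 -0.86 (SE 0.31, adjusted p = 0.0969). The OTX015 difference kept its direction in 18 alternatives and passed in 7 of them (adjusted p 0.0156 to 0.116). Of the 12 fits that left out 1 library, it passed in 3, those without vehicle replicate 1 of AML3, vehicle replicate 1 of AML2 or OTX015 replicate 3 of AML2.

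**Figure D3:**
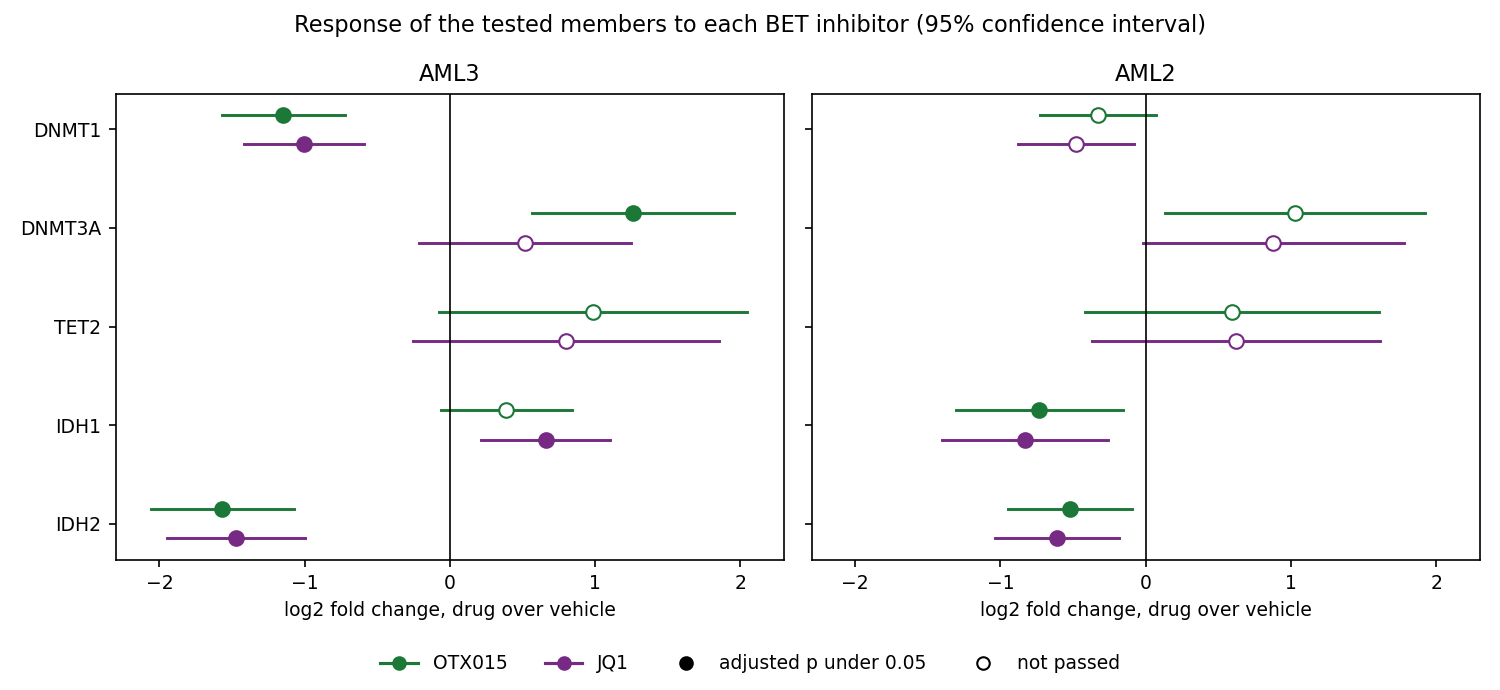
Log2 fold change of drug over vehicle (x axis) with its 95% confidence interval for the 5 tested genes, in AML3 (left) and AML2 (right), OTX015 in green and JQ1 in purple; filled points have an adjusted p under 0.05. IDH2 lies below 0 in both lines, and IDH1 lies below 0 in AML2 and above 0 in AML3.

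The counts of calls are set against all genes here. Among the 5 tested genes, OTX015 in AML3 raised 1 and lowered 2, where 28.8% of 10031 genes rose and 26.1% fell. JQ1 in AML3 also raised 1 and lowered 2, where 26.8% rose and 24.1% fell. OTX015 in AML2 raised 0 and lowered 2, against 20.5% and 19.9% of all genes, and JQ1 in AML2 raised 0 and lowered 2, against 17.2% and 17.4%. AML3 against AML2 gave 2 higher and 2 lower with OTX015 (18.9% and 18.2% of all genes), 1 higher and 2 lower with JQ1 (20.1% and 17.2%), and 1 higher and 0 lower with vehicle (11.4% and 11.7%). The difference in response passed as higher for 0 and lower for 1 gene with OTX015 (2.84% and 4.81%), and as higher for 1 and lower for 0 with JQ1 (3.02% and 3.92%). The 4 drug comparisons share vehicle libraries within each line. Of the 7 start clusters tested, 3 passed for OTX015 in AML3 (54.2% of 12867 clusters), 4 for JQ1 in AML3 (50.3%), 1 for OTX015 in AML2 (40.6%) and 2 for JQ1 in AML2 (35.1%).

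OTX015 and JQ1 were set against each other within each line, 10 tests over the 5 genes, adjusted over all genes. None passed, where edgeR called 0% of genes (at an unadjusted p under 0.05, 253 genes in AML3 and 331 in AML2), and DESeq2 called 0 genes in AML3 and 1 in AML2, which is none of these 5. The smallest unadjusted p among the 10 was 0.0351, for DNMT3A in AML3, at 28.2 ± 9.69 CPM with OTX015 and 15.2 ± 5.38 CPM with JQ1 (log2 0.74, 95% confidence interval 0.06 to 1.42, adjusted p = 1). For DNMT1 the interval of the difference was -0.58 to 0.30 in AML3 and -0.26 to 0.56 in AML2, and for IDH2 it was -0.64 to 0.45 in AML3 and -0.36 to 0.54 in AML2. For IDH1 it was -0.72 to 0.17 in AML3 and -0.54 to 0.74 in AML2. For TET2 it spanned -0.83 to 1.20 in AML3 and -1.04 to 0.98 in AML2. For TET3, outside the test, OTX015 gave 9 tags and JQ1 11 in AML3, a ratio of 0.937 (95% counting interval 0.343 to 2.49). In AML2 OTX015 gave 13 tags and JQ1 4, a ratio of 3.54 (counting interval 1.09 to 14.9), and the fit without the filter gave an unadjusted p of 0.0384 and an adjusted p of 1. No difference between the amide and the ester compound passed the adjusted threshold on these genes, and the intervals give the sizes that remain possible. The doses were not given, so whether they match is unknown.

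The partners of these enzymes were followed in lists, whose counts stand against the shares of all genes given above. Of 9 maintenance partners, 1 rose and 4 fell in each of the 4 drug comparisons, with list medians between log2 -0.44 and -0.37 against all-gene medians of 0 to 0.04. UHRF1, which brings DNMT1 to newly replicated DNA, had 14.9 CPM with OTX015, 15.7 with JQ1 and 64.9 with vehicle on average in AML3, and fell at log2 -2.14 (SE 0.27) with OTX015 and -2.01 (SE 0.26) with JQ1. In AML2 it fell at log2 -1.08 and -1.14 with the same compounds (SE 0.21 each). PCNA, the replication clamp, fell at log2 -1.82 with OTX015 and -1.46 with JQ1 in AML3 and at log2 -1.02 and -0.92 in AML2. CDCA7, which works with the remodeller HELLS, fell at log2 -1.63 and -1.32 in AML3 and at log2 -1.72 and -1.03 in AML2. The gene that rose in all 4 was UHRF2, the UHRF1 relative, by 0.82 to 1.03; it was chosen after its values were seen.

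S phase genes, which mark replicating cells, were counted beside DNMT1 because its RNA is known to follow the cell cycle. All 12 fell in AML3 with each drug, with medians of log2 -2.29 for OTX015 and -2.19 for JQ1. In AML2, 9 fell and 1 rose with OTX015 (median -0.85), and 7 fell and 1 rose with JQ1 (median -0.76). In the test of the difference in response, 10 of the 12 were lower in AML3 than in AML2 with OTX015 and 7 with JQ1. MCM5, a subunit of the replicative helicase, was 12.7 CPM with OTX015, 24.8 with JQ1 and 125 with vehicle in AML3, and 53.6, 65.9 and 106 CPM in AML2 with the same treatments. MCM6 and RRM1 fell in all 4 comparisons too, at log2 -2.81 and -2.91 for OTX015 in AML3. The gene that rose in AML2 was RRM2, named here after its values were seen. The part of the S phase genes' fall in that of DNMT1 was not tested.

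Of 8 genes that act with TET enzymes or in base excision repair, 3 rose and 1 fell in AML3 with each drug, and 4 rose and 1 fell in AML2. The list medians were log2 -0.01 with OTX015 and 0.23 with JQ1 in AML3, and 0.55 and 0.53 in AML2. OGT, the sugar transferase that binds TET proteins, rose to 169 CPM with OTX015 and 138 CPM with JQ1 in AML3, against 52.7 CPM with vehicle (log2 1.67 and 1.39, SE 0.20 each), and in AML2 by 0.95 and 0.80. GADD45B, a stress gene linked to demethylation, rose by 3.47 with OTX015 and 3.22 with JQ1 in AML3 and by 3.25 and 2.42 in AML2. CXXC5, a CXXC zinc-finger protein that binds unmethylated CpG, rose by 1.76 with OTX015 and 1.74 with JQ1 in AML2. In AML3 it stood at 3.63 CPM with OTX015, 4.68 with JQ1 and 7.59 with vehicle, and did not pass. The gene that fell in all 4 was APEX1, the abasic-site nuclease (log2 -1.98 to -1.60), chosen after its values were seen. NEIL1 and TET1, with 4 and 7 tags, could not be tested.

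Of 7 methyl-CpG readers tested, 2 rose in each drug comparison and 1 fell in each AML3 comparison, with list medians of log2 -0.27 to 0.14. These counts are near the shares of all genes given above, 17.2 to 28.8% higher in the 4 drug comparisons and 24.1 to 26.1% lower in AML3. ZBTB4 rose in all 4, by 1.30 with OTX015 and 1.45 with JQ1 in AML3 and by 1.11 and 1.15 in AML2. ZBTB33, which encodes Kaiso, fell in AML3 at log2 -1.28 with OTX015 and -1.34 with JQ1. MBD1 rose with OTX015 in both lines, by 0.72 in AML3 and 0.77 in AML2, and with JQ1 in AML3, by 0.67.

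For the supply of S-adenosylmethionine, the methyl donor, 2 of 7 genes rose in AML3 with each drug, near the 28.8% of all genes that rose with OTX015 and the 26.8% with JQ1. In AML2 1 rose and 1 fell with OTX015, and 1 fell with JQ1. List medians lay between log2 -0.06 and 0.29. MAT2A, which makes the donor, had 237 CPM with OTX015, 279 with JQ1 and 107 with vehicle in AML3 (log2 1.13 and 1.37, SE 0.27 each), and rose with OTX015 in AML2 (0.83). AHCY, which clears the product of methyl transfer, fell in AML2 at log2 -0.96 with OTX015 and -0.86 with JQ1, and AHCYL1, an AHCY relative, rose in AML3 by 0.74 and 0.78.

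Among 11 other enzymes and carriers of isocitrate and α-ketoglutarate, 1 rose and 5 fell with OTX015 in AML3, 1 rose and 3 fell with JQ1 in AML3, 2 rose and 2 fell with OTX015 in AML2, and 1 rose and 4 fell with JQ1 in AML2. List medians lay between log2 -0.56 and -0.09. SLC25A1, the mitochondrial citrate carrier, fell in all 4, at log2 -1.52 with OTX015 and -1.72 with JQ1 in AML3 and at log2 -1.12 and -1.01 in AML2. CS, citrate synthase, fell in all 4 at log2 -1.09 to -0.89. IDH3G, a subunit of the NAD-dependent isocitrate dehydrogenase, fell in AML3 at log2 -1.20 with OTX015 and -0.91 with JQ1 and did not pass in AML2. D2HGDH, which removes D-hydroxyglutarate and is named here after its values were seen, rose in all 4, by 1.44 with OTX015 and 1.66 with JQ1 in AML3 and by 2.18 and 1.61 in AML2.

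**Figure D4:**
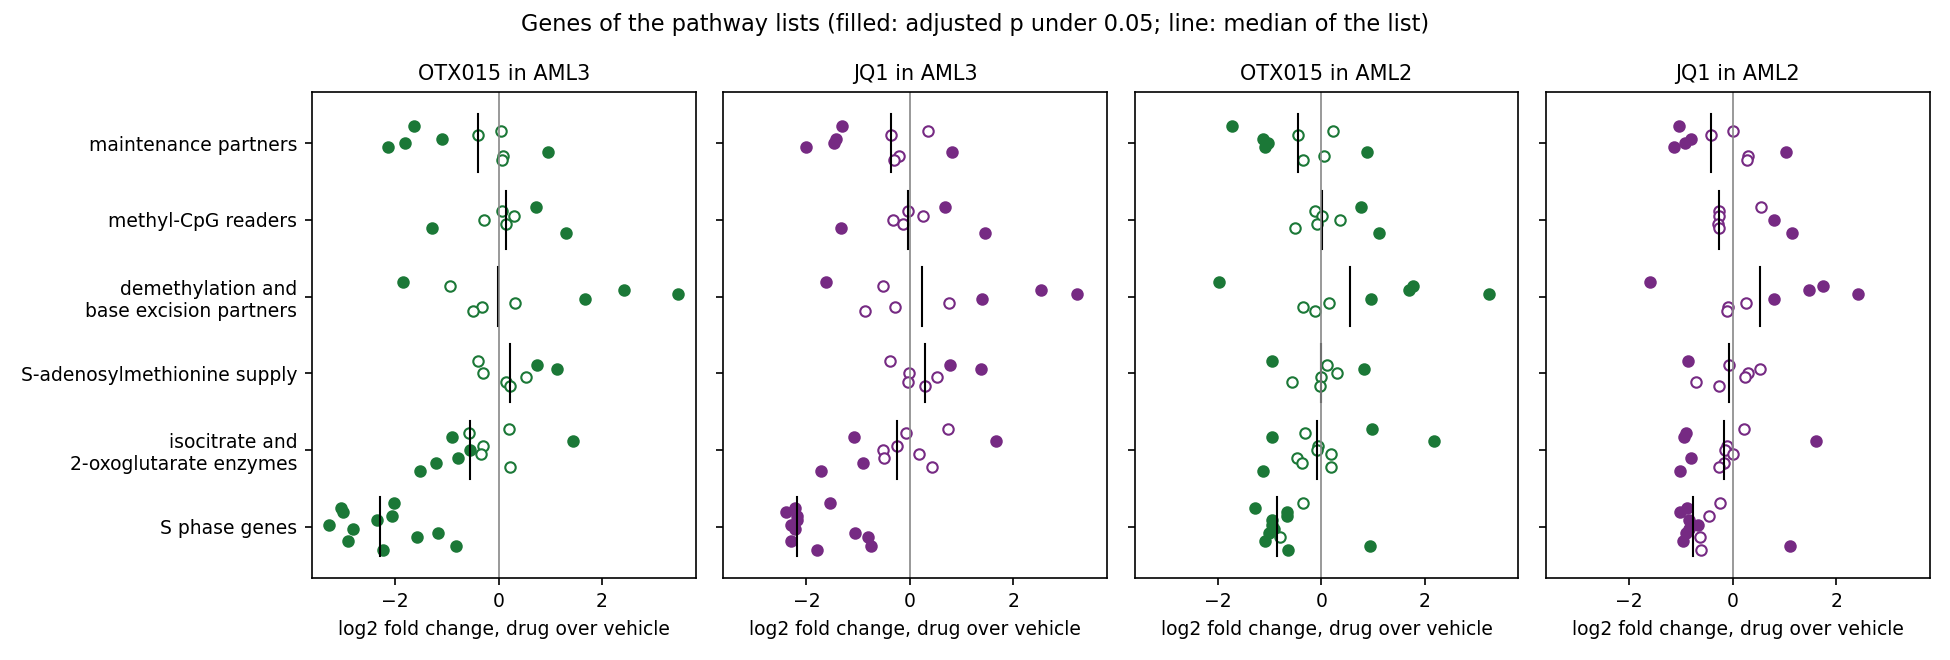
Log2 fold change of drug over vehicle (x axis) for each tested gene of the 6 lists (rows), in 4 panels for OTX015 and JQ1 in AML3 and in AML2; filled points have an adjusted p under 0.05 and vertical lines are list medians. All 12 S phase genes lie below 0 in AML3, and GADD45B and OGT lie above 0 in all 4 panels.

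Over the 18 libraries the genes with the pattern most like DNMT1, among 8707 averaging at least 10 CPM, were LMNB1 (Pearson r = 0.951), DLGAP5 (0.948) and UHRF1 (0.947). For IDH2 they were PTTG1 (0.961), MRPS18B (0.953) and UBE2T (0.952), and for IDH1 they were ITGB1 (0.966), HOXB2 (0.965) and CREB3L2 (0.965). Likeness was lower for the low genes, with ZBTB10 first for DNMT3A (0.918) and ESYT2 first for TET2 (0.847). These correlations of log2 CPM describe libraries that share 6 groups and their depths, and they carry no test.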

How the data were processed

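CAGE libraries of 2 human leukaemia lines were analysed from tag counts per gene and per tag cluster, as the authors deposited them. Per the labels' protocols, RNA was extracted with a column kit and CAGE libraries followed a published protocol; the submitters' processing notes name STAR and hg38, without versions or roles, while most cluster names carry hg19. The 7 genes and the lists were chosen with earlier results of these data known.

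Counts were tested with edgeR's quasi-likelihood test (R 4.3.3, edgeR 4.0.16) in 1 fit over all 18 libraries with 1 mean per group, TMM scaling and edgeR's filter on low counts, which kept 10031 of 14079 genes and 12867 of 42133 clusters. P-values were adjusted by the Benjamini-Hochberg method over all features tested, with a threshold of 0.05. The procedure was tried on simulated data for JQ1 against vehicle in AML2 alone, with a small part of the genes changed and no replicate effect. How it performs under changes as wide as those in these libraries was not tested. Clusters were tied to a gene where a set of clusters on its strand summed exactly to its count in every library. The set could lie anywhere within 1500000 bases either side of the gene's GRCh38 position and need not be adjacent. For each of the 7 genes 1 such set was found. Ratios of pooled tags carry exact intervals, which cover counting error only. Folds against the floor of 3 tags take the other group's tags as counted, without their counting error.

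Named genes are the 7 members, up to 3 genes per list with the smallest adjusted p among those averaging at least 10 CPM, and 3 genes of most similar pattern per tested member. Other choices are marked in the text. Alternatives were DESeq2 1.42.0, its size factors, no filter, the groups compared alone, replicates 1 and 2 alone, each library left out, and the replicate number as a block. Same-numbered libraries deviated together (every correlation over 0.1) between OTX015 and JQ1 in AML3 (0.351 to 0.623) and AML2 (0.121 to 0.347). The same held between AML3 and AML2 with JQ1 (0.106 to 0.246), and between AML3 with OTX015 and AML2 with JQ1 (0.103 to 0.204). The labels do not say what the numbers mark, and libraries numbered 3 were also shallower. The cause was not tested. The block changed no call of the 7 genes between OTX015 and JQ1, where none had passed, or between the lines with JQ1.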

Additional observations from a re-analysis of the deposited data

Results flagged for a closer look

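The response of IDH1 to JQ1 differed between the lines by a test of that difference, at log2 1.49 (SE 0.35, adjusted p = 0.00831), with a change of 0.66 in AML3 and -0.83 in AML2. The main IDH1 start cluster gave a difference of log2 1.80 (SE 0.39, adjusted p = 0.00405), with 0.74 in AML3 and -1.07 in AML2. The response of IDH2 to OTX015 differed by log2 -1.05 (SE 0.32, adjusted p = 0.0412), with -1.57 in AML3 and -0.52 in AML2.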

How the results depend on the processing

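Of 74 comparisons of a call count with an alternative other than leaving out 1 library, 64 stayed within 1.5 times, and of 346 single values 318 kept direction and side of the threshold. With the groups compared alone, the number of genes called was 1 for JQ1 in AML2, 1 for OTX015 in AML2 and 2 for AML3 against AML2 with vehicle, and DESeq2 called 0 for OTX015 in AML2. For the difference in OTX015 response it was 2 with DESeq2's size factors, 0 without the filter, 2 with the replicate block and 3 with replicates 1 and 2 alone. Of the start clusters, 1 was called for JQ1 in AML2 without the filter and 2 for OTX015 in AML2 with the replicate block. The cause was not tested.

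Leaving out 1 library gave 3 to 4 genes for OTX015 in AML3, 2 to 3 for JQ1 in AML3, 0 to 2 for OTX015 in AML2, 0 to 2 for JQ1 in AML2, 0 to 0 for OTX015 against JQ1 in either line, 4 to 4, 2 to 3 and 1 to 1 for AML3 against AML2 with OTX015, JQ1 and vehicle, and 0 to 1 and 1 to 2 for the difference in OTX015 and JQ1 response. Clusters called ranged from 2 to 4 for OTX015 and 3 to 4 for JQ1 in AML3, and from 0 to 2 and 1 to 2 in AML2.

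Among the 7 genes, these signs turned, for values that had not passed. With replicates 1 and 2 alone TET2 was -0.041 for OTX015 against JQ1 in AML3 and -0.24 for AML3 against AML2 with OTX015, DNMT1 was 0.056 for the lines with vehicle, and DNMT3A was 0.14 for the difference in JQ1 response. Without 1 library, OTX015 against JQ1 ranged in AML3 from -0.38 to 0.59 for TET2 and -0.17 to 0.014 for IDH2, and in AML2 from -0.021 to 0.31 for DNMT3A, -0.0067 to 0.22 for IDH2 and -0.29 to 0.20 for TET2. TET2 between lines ranged from -0.45 to 0.52 with OTX015, -0.45 to 0.28 with JQ1 and -0.53 to 0.23 with vehicle, and its difference in response from -0.17 to 0.79 for OTX015 and -0.33 to 0.55 for JQ1.

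With the replicate number as a block, 5853 genes were called for OTX015 in AML3 (5505 without it) 3867 for JQ1 in AML2 (3469 without it), and 1115 and 1019 for the differences in OTX015 and JQ1 response (767 and 696 without it; 1410 and 1263 with replicates 1 and 2 alone), and DNMT1 passed for JQ1 in AML2 (adjusted p = 0.0477) and IDH1 for the difference in OTX015 response (adjusted p = 0.0343). Depth limits DNMT3B, TET3 and the internal DNMT3A start, which had 96, 37 and 11 tags in all. OTX015 against JQ1 gave 1 gene in AML3 and 4 in AML2 with replicates 1 and 2 alone.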
